A study of Homo sapiens with 6 samples.

Results

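The TNF, interleukin-1 and interleukin-18 axis was followed through 9 genes in THP-1 cells given interleukin-6 (IL-6). The genes were chosen by name from the deposited tables, on the condition of a value in at least 4 of the 6 libraries. All 9 had a value in all 6 libraries, out of 60325 gene rows, of which 17388 had 6 values and 13473 entered the tests. THP-1 is an established human monocytic leukaemia cell line. It was treated with recombinant human IL-6 and sampled for total RNA at 6, 24 and 48 h, beside control cells of the same time points. The labels do not say what the controls received. Each of the 6 combinations had 1 library, so 3 time-matched pairs were the only replication. Whether the pairs were grown as separate cultures is not stated, so each p-value measures only the spread between these libraries. The series title names lung monocytes with IL-6 receptor expression in COPD, a chronic obstructive lung disease, and the design text gives the changes driven by IL-6 in THP-1 cells as the question.

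TNF is a secreted cytokine that acts through a pair of receptors, the broadly expressed TNFRSF1A and the mainly leukocyte-expressed TNFRSF1B, and activates NF-κB, a family of transcription factors of inflammation. Interleukin-1β and interleukin-18 are made as inactive precursors. In monocytes the sensor NLRP3 assembles a complex, the inflammasome, that activates caspase-1, the product of CASP1, which cuts both precursors. Each arm has a soluble inhibitor: IL1RN encodes the interleukin-1 receptor antagonist, and IL18BP encodes a secreted protein that binds and neutralises interleukin-18.

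On GRCh38, as the tables give it, TNF (ENSG00000232810.4) lies on chromosome 6 from 31575565 to 31578336. TNFRSF1B (ENSG00000028137.19) lies on chromosome 1 from 12166991 to 12209228 and NLRP3 (ENSG00000162711.18) on the same chromosome from 247416156 to 247449108. IL1B (ENSG00000125538.12) lies on chromosome 2 from 112829751 to 112836816, and IL1RN (ENSG00000136689.19) on the same chromosome from 113107214 to 113134016. IL18 (ENSG00000150782.12) lies on chromosome 11 from 112143253 to 112164096, CASP1 (ENSG00000137752.24) on that chromosome from 105025443 to 105035250, and IL18BP (ENSG00000137496.18) also there from 71998613 to 72005715. TNFRSF1A (ENSG00000067182.8) lies on chromosome 12 from 6328757 to 6342114. All 9 are annotated as protein-coding, and each value covers the whole gene.

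The promoters of the genes that the results turn on are shown first. They are those of TNF and TNFRSF1B, the genes past the threshold for time point, and of IL1B and IL18BP, which had the highest and the lowest IL-6 difference among the 9. Each stretch is RefSeq sequence of build GRCh38.p14, 250 bases before to 50 bases after an annotated transcription start, written 5′ to 3′ on the strand of the gene. The stretches are chr6:31575315-31575614 (plus strand) for TNF, chr1:12166741-12167040 (plus strand) for TNFRSF1B, chr2:112836730-112837029 (minus strand) for IL1B and chr11:71999367-71999666 (plus strand) for IL18BP. RefSeq lists 4 starts for IL18BP, and the third is shown because it alone of the 4 held a match. Capitals mark matches, on either strand, to the letters described after the sequences.
TNF: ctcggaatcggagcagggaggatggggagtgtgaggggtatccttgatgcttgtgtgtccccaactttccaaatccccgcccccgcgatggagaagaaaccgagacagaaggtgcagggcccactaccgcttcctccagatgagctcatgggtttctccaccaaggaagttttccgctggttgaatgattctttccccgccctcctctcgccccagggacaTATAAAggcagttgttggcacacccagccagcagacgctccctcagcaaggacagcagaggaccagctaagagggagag
TNFRSF1B: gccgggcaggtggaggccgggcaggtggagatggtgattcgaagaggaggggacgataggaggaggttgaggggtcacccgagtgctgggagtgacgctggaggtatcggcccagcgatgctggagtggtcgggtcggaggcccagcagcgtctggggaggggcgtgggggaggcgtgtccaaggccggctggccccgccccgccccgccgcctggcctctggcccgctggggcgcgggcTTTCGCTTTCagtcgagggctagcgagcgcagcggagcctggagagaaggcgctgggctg
IL1B: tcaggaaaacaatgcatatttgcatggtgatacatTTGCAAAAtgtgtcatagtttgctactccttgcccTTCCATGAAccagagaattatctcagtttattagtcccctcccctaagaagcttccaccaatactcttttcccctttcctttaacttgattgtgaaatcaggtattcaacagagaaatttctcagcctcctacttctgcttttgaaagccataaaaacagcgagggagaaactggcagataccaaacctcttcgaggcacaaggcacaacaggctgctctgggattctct
IL18BP: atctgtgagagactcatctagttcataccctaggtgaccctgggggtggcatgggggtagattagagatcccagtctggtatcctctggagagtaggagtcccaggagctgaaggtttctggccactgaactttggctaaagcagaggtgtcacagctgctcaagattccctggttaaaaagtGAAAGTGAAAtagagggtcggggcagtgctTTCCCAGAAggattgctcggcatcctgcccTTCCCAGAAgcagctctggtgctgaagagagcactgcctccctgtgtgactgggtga

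The letters searched were TTCNNNGAA for STAT factors, which carry the IL-6 signal, TTGCNNAA for C/EBP factors, TGANTCA for AP-1, TATAAA for the TATA box, and the interferon-response and NF-κB consensus motifs. STAT letters occurred once in the IL1B window, at base -180 from the start, and at bases -37 and -7 in the IL18BP window. They occurred in 7.66% of the 35116 windows of this length in the RefSeq table, and in any window of 9.38% of genes. The IL18BP window was picked from 4 because it held a match, so nothing is read from its matches against these shares. The interferon-response motif occurred at base -67 of the IL18BP window and at base -10 of the TNFRSF1B window. It also occurred in 2 IL1RN windows, which overlap and hold the same site. Of all windows 3.57% held it, and of all genes 4.38% in any of their windows. AP-1 letters occurred in 1 IL1RN window, against 7.71% of all. The TNF window held the TATA box at base -29. The NLRP3 window and 1 of the IL1RN windows, which are not printed, also held a TATA box, and 11.5% of all windows hold it. C/EBP letters occurred at base -215 in the IL1B window, against 10.5% of all windows, and the NF-κB consensus in none of the 12 windows of the 7 genes listed in the table, against 5.91% of all. A match is a description of the letters in these windows only.

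The deposited values are log2 values that the authors centred on each gene. A level below is a value in arbitrary units, found from the spacing of these log2 values with the smallest step taken as 0.001. Levels compare libraries within a gene and are not compared between genes, because the sources used here do not say whether the values were divided by gene length. High levels, as for TNFRSF1A and CASP1, are less certain than low ones. The log2 differences do not depend on the levels. All 13 monocyte and macrophage markers examined, CD14, LYZ, CSF1R and SPI1 among them, had values in all 6 libraries, with a median IL-6 estimate of -0.22 on the log2 scale whose part in the results below was not tested. Of these, FCGR1A, an Fc receptor gene, passed for IL-6 (0.65 ± 0.10, limma adjusted p = 0.0338). Of 10 T and NK cell markers CD3E, CD2 and KLRD1 had no value in any library, as MS4A1 had none among 5 B cell markers. In bulk RNA a lower level in each cell and fewer cells with the transcript cannot be told apart.

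With IL-6, none of the 9 genes passed the threshold over the 3 pairs, whereas with time TNF and TNFRSF1B were higher at 48 h. IL1B, the gene of interleukin-1β, had the highest IL-6 estimate, 1.94-fold. Its mean level was 1.68 in the IL-6 libraries and 0.847 in the control libraries, so it passed the minimum mean level of 1 for testing only through the IL-6 libraries, and its place among tested genes supports nothing. IL18BP had the lowest, 0.558-fold, and was lower with IL-6 at 24 and 48 h, at 0.454 and 0.401 times control. TNF, unlike IL1B, was lower with IL-6 in each pair, at 0.714, 0.844 and 0.930 times control at 6, 24 and 48 h. CASP1 stayed within a 1.10-fold range over all 6 libraries.

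**Figure D1:**
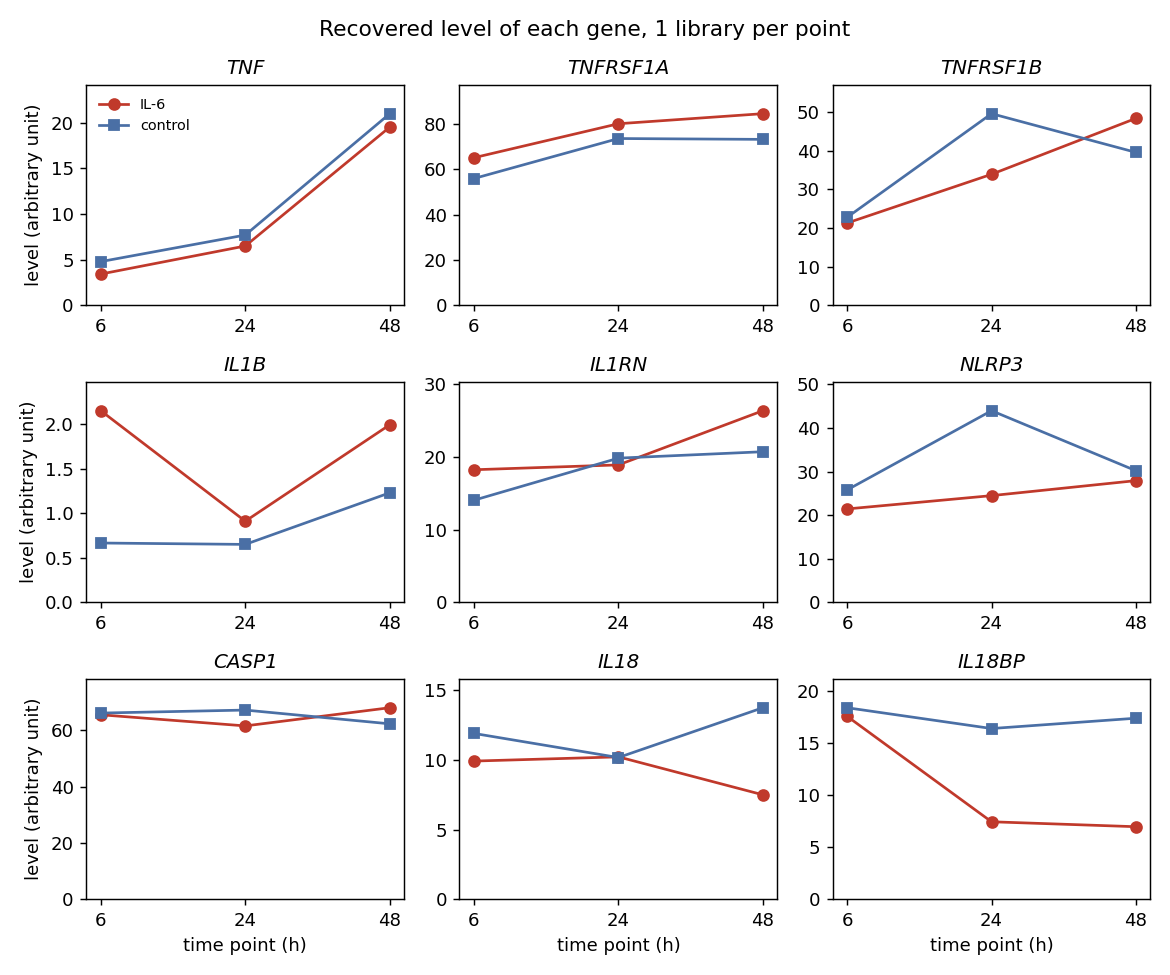
Level of each of the 9 genes (arbitrary unit, linear axis from 0) at 6, 24 and 48 h, drawn at even spacing, in IL-6 libraries (red circles) and control libraries (blue squares), 1 library per point. TNF reaches 19.5 with IL-6 and 21.0 in control at 48 h, IL1B lies above control with IL-6 at each time point, and IL18BP with IL-6 lies at 7.45 and 6.98 at 24 and 48 h against 16.4 and 17.4 in control.

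The IL-6 effect was estimated by limma, a linear model with moderated variances, on the log2 values with time point and agent as terms and Benjamini-Hochberg adjustment over the 13473 genes. At an adjusted p under 0.05, 0 of 9 genes passed, against 0.252% of all tested genes. At an unadjusted p under 0.05, IL18BP and NLRP3 were lower, 2 of 9, against 9.12% of all in either direction and 5.37% lower. The median estimate of the 9 was -0.12 on the log2 scale and that of all tested genes -0.03. TNFRSF1A and IL1B were higher at all 3 time points, 2 of 9, against 12.6% of tested genes, and TNF, NLRP3 and IL18BP were lower at all 3, 3 of 9, against 18.2%. Without IL1B the upward count holds TNFRSF1A alone. In none of the 9 did the 3 IL-6 libraries lie wholly above or below the 3 control libraries, which was so for 3.52% of tested genes upward and 5.72% downward.

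IL1B had levels of 2.15, 0.909 and 1.99 with IL-6 at 6, 24 and 48 h, and of 0.664, 0.649 and 1.23 in control. The IL-6 library was the higher one of each pair, but the groups overlapped, since the IL-6 library of 24 h lay below the control library of 48 h. The log2 differences were 1.69, 0.49 and 0.70, with an SD of 0.64. Limma gave 0.96 ± 0.46 (SE, 3 pairs, 95% interval -0.07 to 1.99, adjusted p = 0.582). At 6 h the IL1B level with IL-6 was 3.24 times that of control. It was the single member at least 2-fold apart at 6 h, where 6.76% of all tested genes were in either direction, a count from which nothing is read, since the IL-6 libraries alone carried IL1B past the filter. On the log2(level + 1) scale the 6 h difference was 0.92, under 2-fold.

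IL1RN, whose product blocks the interleukin-1 receptor, had levels of 18.2, 18.9 and 26.4 with IL-6 and of 14.04, 19.8 and 20.7 in control at 6, 24 and 48 h. The IL-6 library was higher at 6 and 48 h and slightly lower at 24 h, with log2 differences of 0.38, -0.07 and 0.35. The limma estimate was 0.22 ± 0.16 (SE, 3 pairs, 95% interval -0.13 to 0.57, adjusted p = 0.752). In both arms the highest level was that of 48 h and the lowest that of 6 h.

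TNF itself had levels of 3.41, 6.49 and 19.5 with IL-6 and of 4.78, 7.69 and 21.0 in control at 6, 24 and 48 h. The IL-6 library was the lower one of each pair, by less at each later time point, with log2 differences of -0.49, -0.25 and -0.10 and an SD of 0.19. The estimate was -0.28 ± 0.18 (limma SE, 3 pairs, 95% interval -0.69 to 0.13, adjusted p = 0.718). Of the 2 receptor genes, TNFRSF1A had levels of 65.0, 80.0 and 84.5 with IL-6 and of 55.9, 73.5 and 73.1 in control. It was higher with IL-6 in each pair by a similar small amount, 0.22, 0.12 and 0.21 on the log2 scale, and the estimate of 0.18 ± 0.11 did not pass (limma adjusted p = 0.670, 95% interval -0.06 to 0.42). TNFRSF1B had levels of 21.3, 33.9 and 48.4 with IL-6 and of 22.7, 49.6 and 39.6 in control. Its log2 differences of -0.10, -0.55 and 0.29 did not share a direction, and the estimate was -0.12 ± 0.16 (limma adjusted p = 0.887).

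NLRP3, the inflammasome sensor, had levels of 21.4, 24.5 and 27.9 with IL-6 and of 25.8, 44.0 and 30.2 in control at 6, 24 and 48 h. It was lower with IL-6 in each pair, with log2 differences of -0.27, -0.85 and -0.11, and the widest gap came with the high control library of 24 h. The estimate was -0.41 ± 0.16 (limma SE, 95% interval -0.77 to -0.04, adjusted p = 0.484, unadjusted p = 0.0313). CASP1 had levels of 65.5, 61.6 and 68.1 with IL-6 and of 66.2, 67.2 and 62.3 in control. Its estimate of -0.0043 ± 0.11 on the log2 scale (limma adjusted p = 0.993) had a 95% interval of -0.26 to 0.25, and 99.6% of tested genes had a wider range over the 6 libraries. CARD16 is a near-copy of the start of CASP1, and its reads can be shared with those of CASP1, so both values are uncertain.

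IL18, the interleukin-18 precursor gene, had levels of 9.91, 10.2 and 7.49 with IL-6 and of 11.9, 10.2 and 13.7 in control at 6, 24 and 48 h. The 2 libraries of 24 h were alike, and at 48 h the IL-6 library was the lowest and the control library the highest of the 6. The log2 differences were -0.26, 0.01 and -0.87, and the estimate was -0.38 ± 0.21 (limma SE, 95% interval -0.85 to 0.09, adjusted p = 0.650). An unnamed gene on the opposite strand overlaps IL18, and without strand its reads cannot be told apart from those of IL18.

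IL18BP had levels of 17.6, 7.45 and 6.98 with IL-6 and of 18.4, 16.4 and 17.4 in control at 6, 24 and 48 h. The IL-6 libraries of 24 and 48 h lay well below the other 4, and the 2 libraries of 6 h were close to each other, so the groups overlapped. The log2 differences were -0.07, -1.14 and -1.32. The estimate over the 3 pairs was -0.84 ± 0.24 (limma SE, 95% interval -1.37 to -0.31, adjusted p = 0.297, unadjusted p = 0.00559), and IL18BP ranked 253 by p among the tested genes. Of all tested genes 2.92% had a lower difference at 24 h and 1.69% at 48 h. IL18BP was the single member at least 2-fold apart at 24 h and at 48 h, against 6.88% and 6.66% of tested genes in either direction.

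The IL-6 effect at 6 h was also set against the mean effect of the later 2 time points, in a model that leaves 1 residual degree of freedom. It gave 0 of 9 genes past the threshold, against 0.193% of tested genes. IL18BP was the single gene under an unadjusted p of 0.05, against 4.07% of tested genes, with a difference of 1.16 ± 0.43 on the log2 scale (limma SE, 95% interval 0.29 to 2.04, unadjusted p = 0.0107, adjusted p = 0.769). Without the 6 h pair the IL-6 estimate of IL18BP was -1.23 and passed (limma adjusted p = 0.00517). In that fit 90 genes were higher and 35 lower among all 13473 tested, against 33 and 1 with all 3 pairs. The pair left out was the one in which IL18BP differed least, so the call depends on that choice. Without the 24 or the 48 h pair IL18BP did not pass. On the opposite strand IL18BP overlaps NUMA1, a mitotic spindle gene, and the library kit does not mark strand. NUMA1 had log2 differences of -0.05, -0.39 and -0.27 at 6, 24 and 48 h, and its part in the values of IL18BP was not tested.

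**Figure D2:**
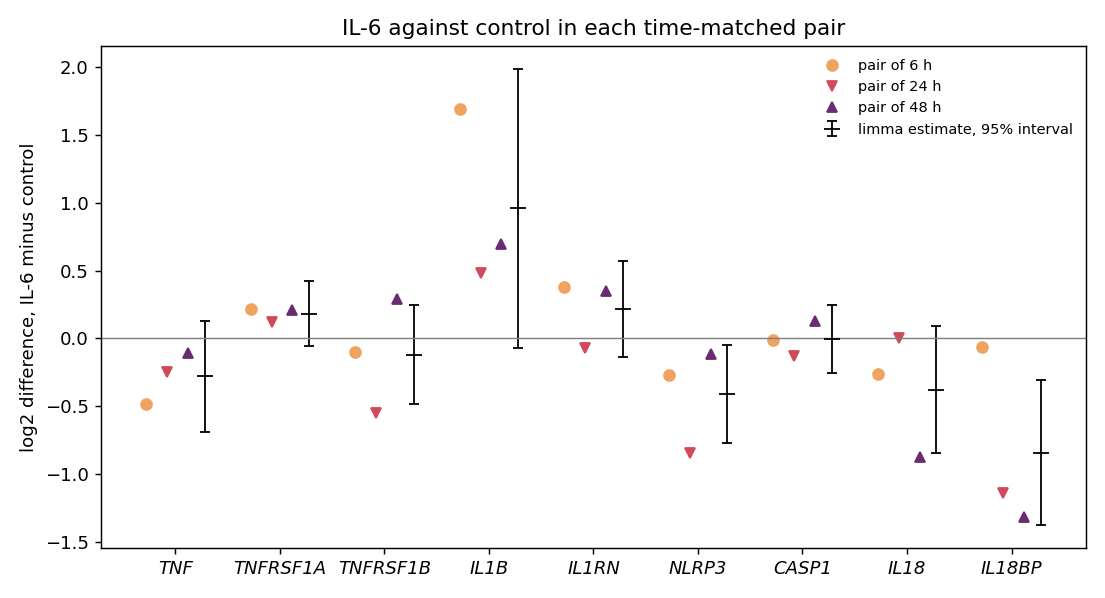
Log2 difference of IL-6 minus control for each of the 9 genes, in the pairs of 6 h (circles), 24 h (downward triangles) and 48 h (upward triangles), with the limma estimate and its 95% interval in black. IL1B lies above 0 and IL18BP, NLRP3 and TNF below 0 in each pair, and the points of IL18BP at 24 and 48 h lie apart from its point at 6 h.

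Time point was compared with both libraries of each time, 1 with IL-6 and 1 control. At 48 h against 6 h, TNF and TNFRSF1B rose, 2 of 9, against 4.13% of tested genes in either direction and 2.58% upward, and no member fell, against 1.54%. With equal library medians the calls over all genes were 297 higher and 303 lower, against 348 higher and 208 lower as deposited, and the same 2 members passed. Beside these calls, 2 of the 13 monocyte and macrophage markers fell at 48 h, the lysozyme gene LYZ by 1.78 and the signalling adaptor gene TYROBP by 0.69 (log2 values, limma adjusted p = 0.000525 and 0.0182), and NKG7 of the T and NK cell list rose by 1.01 (0.0146); their part in the results was not tested. TNF rose 5.02-fold, by 2.33 ± 0.23 on the log2 scale (limma SE, 2 libraries a time point, 95% interval 1.82 to 2.83, adjusted p = 0.00119), and ranked 12 by p among the tested genes. The change from 6 h was 2.52 on the log2 scale in the IL-6 libraries and 2.14 in the control libraries. Both libraries of 48 h lay above both of 24 h, and these above both of 6 h. That order held for TNF and IL1RN, 2 of 9, against 3.64% of tested genes.

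TNFRSF1B rose 1.99-fold at 48 h against 6 h, by 0.99 ± 0.20 (limma SE, 2 libraries a time point, adjusted p = 0.0251). It was 1.19 higher on the log2 scale in the IL-6 libraries and 0.80 in the control libraries, where its highest level was that of 24 h. The call was lost without the IL-6 library of 6 h (estimate 1.01) and without that of 48 h (estimate 0.69). It was also lost with no filter on the level (limma adjusted p = 0.0580). Neither gene passed without the variance trend (limma adjusted p = 0.195 for TNF and 0.241 for TNFRSF1B). In that fit 0 of all 13473 tested genes were higher and 0 lower past the threshold. TNF had estimates of 2.17 to 2.48 on the log2 scale with each of the 6 libraries left out in turn. Libraries of 24 h do not enter the difference of 48 h from 6 h, so leaving them out could not move it. At an unadjusted p under 0.05, 5 of 9 genes differed at 48 h, TNF, TNFRSF1A, TNFRSF1B and IL1RN upward and IL18BP downward, against 21.7% of tested genes.

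At 24 h against 6 h, 0 of 9 genes passed, against 2.02% of tested genes (233 higher and 39 lower, or 152 higher and 70 lower with equal library medians), and 5 of 9 had an unadjusted p under 0.05, against 17.7%. TNFRSF1B had an estimate of 0.90 ± 0.20 (limma adjusted p = 0.0521) and TNF of 0.81 ± 0.23 (limma adjusted p = 0.1001). TNFRSF1A had estimates of 0.35 at 24 h and 0.38 at 48 h, and IL1RN of 0.28 and 0.55, none of them past the threshold. IL18BP had estimates of -0.70 at 24 h and -0.71 at 48 h, which were -1.24 and -1.34 in the IL-6 libraries and -0.17 and -0.081 in the control libraries. Without the control library of 6 h, IL18BP had estimates of -1.29 at both times. That fit takes 1 IL-6 effect for all time points, whereas the IL18BP difference at 6 h was -0.07. Nothing is read from it as a change with time. Without the IL-6 or the control library of 48 h, the 24 h estimate of TNFRSF1B was again 0.90. The model fixes this, since libraries of 48 h do not enter the difference of 24 h from 6 h, so nothing is read from it. IL1B had wide intervals, -1.90 to 0.62 at 24 h and -0.87 to 1.65 at 48 h. The median over all tested genes was 0.11 at 24 h and 0.07 at 48 h, and the medians of the 9 were 0.28 and 0.38. In 5 of 9 genes both libraries of 48 h lay above both of 6 h, against 31.5% of tested genes, and in 1, IL18BP, both lay below, against 21.5%. In 4 of 9 both libraries of 24 h lay above both of 6 h, against 31.4%.

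**Figure D3:**
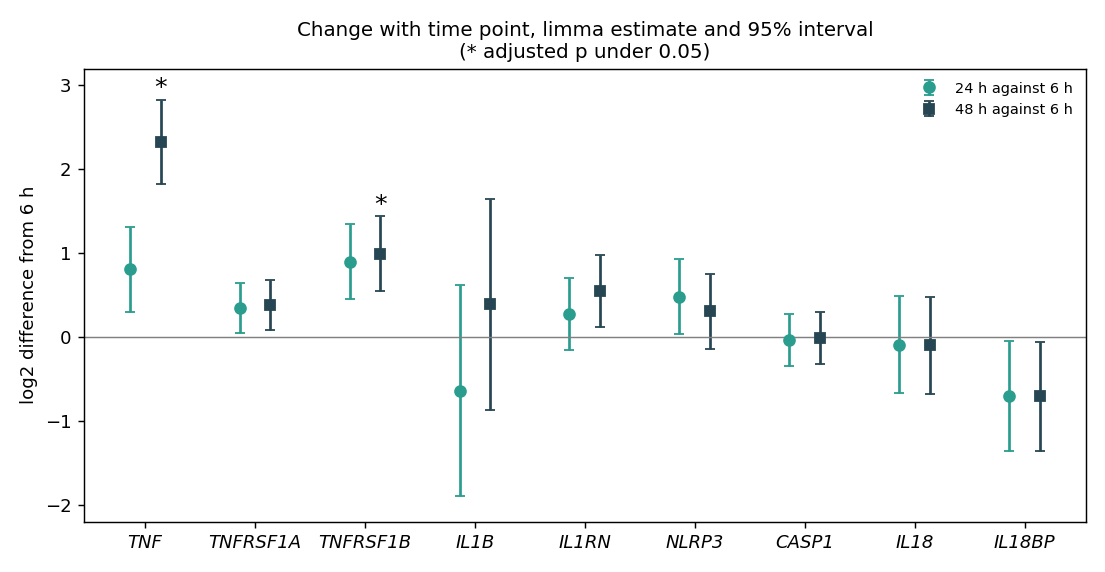
Log2 difference of 24 h (circles) and 48 h (squares) from 6 h for each of the 9 genes, over the IL-6 and the control library of each time point, with 95% intervals from limma. The asterisks mark TNF and TNFRSF1B at 48 h, the 2 differences with an adjusted p under 0.05.

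The rest of the pathway was read from 5 lists, in which members of the 9 are counted too. Of 31 tested genes of the TNF pathway, 0 passed for IL-6, against 0.252% of all tested genes. At an unadjusted p under 0.05, 3 were lower, RIPK1, LTB and TIMP3, against 5.37% of all, and the list median was -0.06 on the log2 scale beside -0.03 for all tested genes. RIPK1, the kinase that TNFRSF1A engages, had an estimate of -0.77 ± 0.33 (limma adjusted p = 0.520), LTB, a TNF family ligand, of -0.51 ± 0.19 (0.422), and TIMP3, which encodes an inhibitor of the TNF-releasing protease ADAM17, of -0.35 ± 0.11 (0.355). RIPK3, a kinase of necroptosis, had an estimate of -0.39 ± 0.19 (limma adjusted p = 0.581). RHBDF2, which helps carry ADAM17 to the cell surface, had an estimate of 0.42 ± 0.25. At 48 h against 6 h, 3 of the 31 rose, against 2.58% of all tested genes, TNF, TNFRSF1B and TIMP3 (0.91 ± 0.14, limma adjusted p = 0.00814), and the list median was 0.35 beside 0.07 for all tested genes.

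Of 14 tested ligands, receptors and adaptors of the interleukin-1 and interleukin-18 arms, 0 passed for IL-6 and 0 for time point at 48 h, against 0.252% and 4.13% of all tested genes. At an unadjusted p under 0.05, IL18BP was lower with IL-6, against 5.37% of all tested genes. At 48 h 1 gene was higher and 2 were lower at that threshold, against 21.7% of all in either direction. Besides IL1B and IL18BP the estimates farthest from 0 were those of the ubiquitin ligase genes PELI2 (-0.70 ± 0.33) and TRAF6 (-0.41 ± 0.22). IL1A had no value in any library. The interleukin-18 receptor genes IL18R1 and IL18RAP had values in 4 libraries each, and IL1R1 had 6 values at a mean level of 0.909, under the minimum for testing.

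Of 20 tested inflammasome and pyroptosis genes 0 passed for IL-6. At an unadjusted p under 0.05, 2 were higher and 2 lower, against 3.76% higher and 5.37% lower among all tested genes. These were NAIP and SERPINB1 (0.38 ± 0.13) upward and TXNIP and NLRP3 downward. NAIP, a sensor of bacterial flagellin and secretion needles, had log2 differences of 0.80, 0.64 and 0.82 and an estimate of 0.75 ± 0.16 (limma adjusted p = 0.136), and reads can be shared with its pseudogenes. TXNIP, which binds thioredoxin, had an estimate of -0.52 ± 0.12 (limma adjusted p = 0.197). The sensor gene NLRC4 had an estimate of -0.57 ± 0.45 and P2RX7, an ATP-gated channel gene, of 0.58 ± 0.28. Neither was among these calls (limma unadjusted p = 0.236 and 0.0683). At 48 h against 6 h NLRP12, another sensor of the NLRP3 family, rose by 2.87 ± 0.53 (limma adjusted p = 0.0183), and CARD16 fell by 0.62 on the log2 scale (limma SE 0.14, adjusted p = 0.0439), the 2 genes of this list that passed, against 4.13% of all tested genes. NLRP12 had levels at 6 h of 0.835 with IL-6 and 0.545 in control, both under the minimum mean level of 1 for testing. At 48 h they were 7.32 and 3.34. It passed that minimum only through the later libraries, and its rise starts from a low level. The adaptor gene PYCARD, which links NLRP3 to caspase-1, had estimates of -0.16 for IL-6 and -0.45 at 48 h, neither past the threshold.

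Among 19 tested genes known to be induced by TNF or interleukin-1, 0 passed for IL-6. At an unadjusted p under 0.05, 3 were higher and 0 lower, against 3.76% and 5.37% of all. The 3 were CCL3, NFKBIZ and PLAUR (0.41 ± 0.14). Of the 19, 10 had a positive estimate, against 5926 of all 13473 tested genes, and the median was 0.03 beside -0.03 for all. ICAM1, an adhesion molecule gene, had log2 differences of 5.75, 0.11 and 3.12 that left its estimate of 2.99 ± 1.31 short of the threshold (limma adjusted p = 0.645). Its control library of 6 h had a level of 0.045, the lowest of its 6, so the size of the 6 h difference rests on a value near the floor of 0.00998 of the tables. The chemokine gene CCL3 had an estimate of 1.41 ± 0.37 (limma adjusted p = 0.243), the nuclear IκB gene NFKBIZ of 1.02 ± 0.34 and NFKB2, an NF-κB subunit gene, of 0.57 ± 0.27. At 48 h against 6 h 3 of the 19 rose and 0 fell, against 2.58% and 1.54% of all tested genes, CCL3 by 2.61 ± 0.45, TNFAIP2 by 0.73 ± 0.17 and NFKBIA, the gene of the NF-κB inhibitor IκBα, by 0.54 ± 0.13, and the median was 0.43. CCL3 had levels at 6 h of 1.40 with IL-6 and 0.343 in control, so its rise starts from a low level. Of 16 tested genes of other TNF family ligands and receptors 0 passed for IL-6. At an unadjusted p under 0.05, 4 were higher and 0 lower, against 3.76% and 5.37% of all. The 4 had estimates of 1.30 ± 0.42 for the decoy receptor gene TNFRSF10C, 0.56 ± 0.24 for TNFRSF12A, 0.49 ± 0.14 for the TRAIL gene TNFSF10 and 0.49 ± 0.16 for the lymphotoxin receptor gene LTBR. CD70 rose by 0.65 ± 0.14 at 24 h and by 0.58 ± 0.14 at 48 h against 6 h (limma adjusted p = 0.0447 and 0.0462), the single call of the 5 lists at 24 h, where 2.02% of all tested genes passed. The genes named for a change with time point are all those of the 5 lists past the threshold, a choice made with their values in view.

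**Figure D4:**
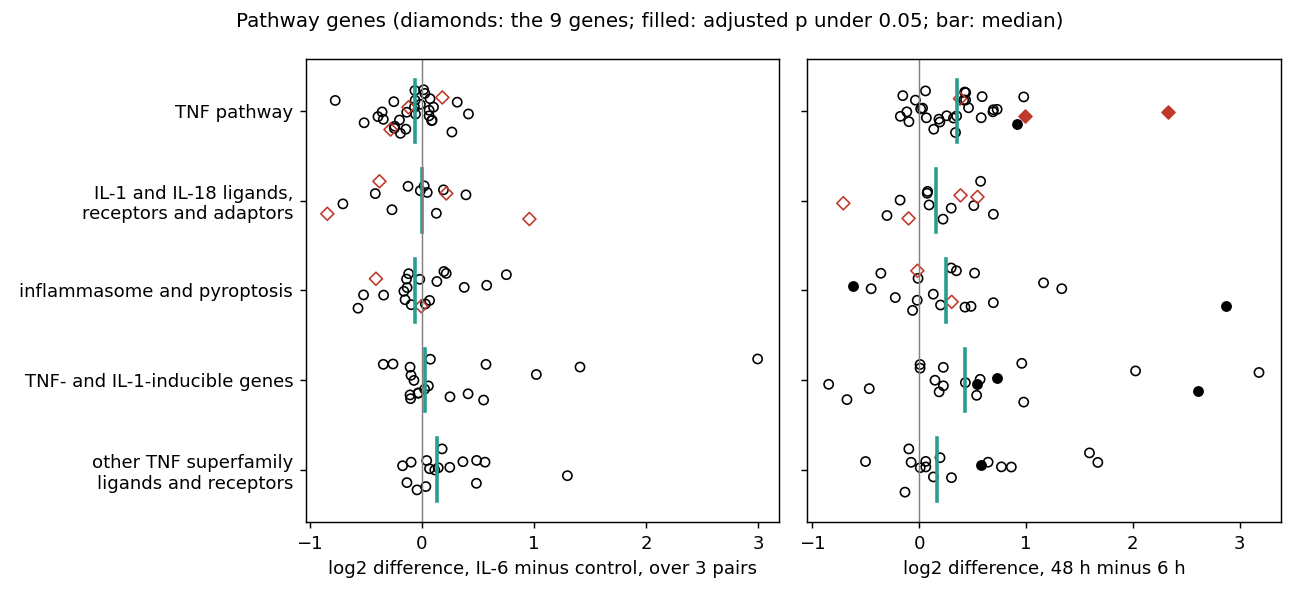
Limma log2 differences of the tested genes of the 5 lists, for IL-6 minus control over 3 pairs (left) and for 48 h minus 6 h (right), 1 point per gene with random vertical spread. Diamonds are the 9 genes, filled symbols have an adjusted p under 0.05 and bars are list medians. No symbol is filled on the left, and TNF and TNFRSF1B are the filled diamonds on the right.

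For the 3 members with the widest range over the libraries, TNF, IL1B and IL18BP, the genes with the smallest root mean square difference of centred log2 values over the 6 libraries were looked up among the 13473. For TNF these were LY9 (0.23), VASH1-AS1 (0.25) and FLRT1 (0.28). For IL1B they were the pseudogene NAIPP3 (0.25), the plexin gene PLXNA1 (0.25) and SECTM1 (0.28). For IL18BP they were CTSV, a lysosomal cathepsin gene (0.14), SERPINB2, the gene of plasminogen activator inhibitor 2 (0.16), and the sialidase gene NEU3 (0.20). CTSV had centred log2 values of 0.41, -0.93 and -0.69 with IL-6 at 6, 24 and 48 h and of 0.66, 0.32 and 0.23 in control, so its 2 low libraries were those of IL18BP. These lists describe 6 libraries.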

How the data were processed

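RNA-seq was run on 6 THP-1 libraries, 1 for each of IL-6 and control at 6, 24 and 48 h. Per the labels' protocols, a SMART-seq kit for low input amplified the RNA and Nextera XT made the libraries, which do not mark strand. Per the submitters' processing notes the build was GRCh38 (hg38). The sources used here do not give the aligner, counting program or scaling. Per the file headers each table holds a processed signal, 1 value per gene. The deposited values are on a log2 scale and centred per gene: gene means are 0 to within 1.8e-07. Libraries had values for 22000 to 23108 genes. Depth in reads is unknown.

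Levels were recovered for 15444 genes (88.8% of those with 6 values) as whole multiples of a step of 0.001 after removing 1 offset per library. The recovery and the test were checked on simulated data. The 1944 genes without a level were treated as high, at 100. Testing took genes with 6 values whose mean level reached 1, using limma 3.58.1 in R 4.3.3 (time point and agent, robust empirical Bayes with a trend on level, median prior 8.19 and 2 residual degrees of freedom). Single time points got values only. The fallback for log2 values in the test plan was used. All 9 members are named, and from each list the 4 genes with the largest IL-6 difference. Genes of the lists with an unadjusted p under 0.05 for IL-6 are named too. The members, lists and rules were chosen with earlier results of these data known. The alternatives were no variance trend, non-robust empirical Bayes, 2 other level filters, equal library medians, log2(level + 1), no time term and leaving out pairs or libraries.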

Additional observations from a re-analysis of the deposited data

Results flagged for a closer look

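TNFRSF1B had IL-6 differences in opposite directions at 2 time points, -0.55 at 24 h and 0.29 at 48 h on the log2 scale. Put by time, its change between 24 and 48 h was 0.51 in the IL-6 libraries and -0.33 in the control libraries. IL18 changed by -0.45 over the same interval in the IL-6 libraries and by 0.43 in the control libraries. Differences of at least 0.25 on each side were taken up here. Each rests on 1 library per condition and was not tested. No sample could be set apart within a group, since no group has more than 1 library.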

How the results depend on the processing

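Depth is unknown, single conditions have no replicate, and a low gene such as IL1B is the least precise. For IL-6, 0 of 9 genes passed under each alternative run on the 6 libraries, and 0 to 1 when a pair was left out (IL18BP without the 6 h pair). At 24 h against 6 h, 1 gene, TNFRSF1B, passed with a mean level of at least 5 and with log2(level + 1), and 0 to 1 with 1 library left out. At 48 h against 6 h, 0 genes passed without the variance trend and 1 with no level filter, and 1 to 3 with 1 library left out. Without the variance trend 0 of all 13473 tested genes passed at 48 h against 6 h, and 0 passed for IL-6 or at 24 h. On the log2(level + 1) scale 0 genes were 2-fold apart at 6 h. The other 35 counts stayed within 1.5 times. Fits that leave out 1 library assume that the lone library of that time point varies like the others. They also assume 1 IL-6 effect for all time points. These fits were chosen after seeing the data. Values that changed sign lay near 0 or had wide intervals. CASP1 had an IL-6 estimate of 0.033 with equal library medians and of -0.070 to 0.057 with a pair left out (0.00031 without that of 6 h), and TNFRSF1B of -0.32 to 0.10. The filter at 5 left IL1B untested. With 1 library left out, the estimates at 24 h against 6 h were -0.12 to 0.058 for CASP1 and -0.38 to 0.20 for IL18. At 48 h against 6 h they were -0.16 to 0.94 for IL1B, -0.47 to 0.28 for IL18 and -0.11 to 0.082 for CASP1. The IL-6 effect at 6 h minus the later one was -0.0094 for TNFRSF1A and -0.030 for TNFRSF1B with equal library medians. The cause was not tested. Equal medians removed a shift of 0.10 over all genes at 24 h against 6 h. The IL-6 fit pairs libraries by time point through its time term, and without that term 0 of 9 genes passed for IL-6. The labels carry no replicate numbers, so no other pairing was fitted.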
